A study of Homo sapiens with 6 samples.

Results

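The genes described here are 48 genes of mitosis, the spindle and the kinetochore, measured in Huh7 cells that overexpressed the circular RNA hsa_circ_0098181. They were taken from the count table by symbol, and all 48 were found among its 50868 genes. All 48 also passed the filter on low counts that left 15055 genes for testing. Huh7 is a long-established line of human liver cancer cells. The cells were transfected with the help of a lipid reagent with a PLC5-CIR plasmid that carries hsa_circ_0098181, or with its control plasmid, and total RNA was taken for sequencing after 48 h. There were 3 libraries per group, named overexpression replicates 1 to 3 and control replicates 1 to 3. The labels do not say whether the libraries of a group came from separate cultures, so the p-values measure the spread between these libraries, which may be technical. The transfection was transient, and the table does not tell how many cells took up either plasmid.

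Mitosis is run by the kinase CDK1 with its cyclins. The Aurora and Polo kinases help to build the spindle, kinetochores join the chromosomes to microtubules, and the spindle assembly checkpoint holds back the anaphase-promoting complex until all chromosomes are attached. Most of these genes are transcribed in waves that peak late in the cell cycle, so in bulk RNA their level follows the share of cells near division as well as the transcription in each cell, and fewer such cells cannot be told apart from less RNA per cell. They are widely used as a readout of proliferation in liver cancer. The study assayed the growth and the cell cycle of these cells, and the comparison asks whether the transcripts of the division machinery differed between the plasmids.

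No difference between the groups was found for this machinery as a whole. The median log2 fold change of the 48 genes, overexpression over control, was 0.004, and it was 0.002 over all genes tested. 25 of the 48 lay above 0 and 23 below. 0 of the 48 passed an adjusted p of 0.05 in edgeR's quasi-likelihood test, where 6 of all genes (0.0399%) did. At an unadjusted p under 0.05 there were 4 (SPC24, PTTG1, CDK1 and NDE1), or 8.33%, against 5.5% of all genes tested. DESeq2 called 1 of the 48 at an adjusted p under 0.05, namely NDE1, against 0.186% of all genes it gave an adjusted p. The 95% interval of the fold change held 0 for 44 genes and lay wholly within 1.5-fold in either direction for 41. A change larger than 1.5-fold was therefore outside the interval for most of the list. How small a change the interval still left out differed by gene. On the log2 scale it ran from -0.222 to 0.174 for TOP2A and from -0.805 to 1.224 for MKI67.

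**Figure D1:**
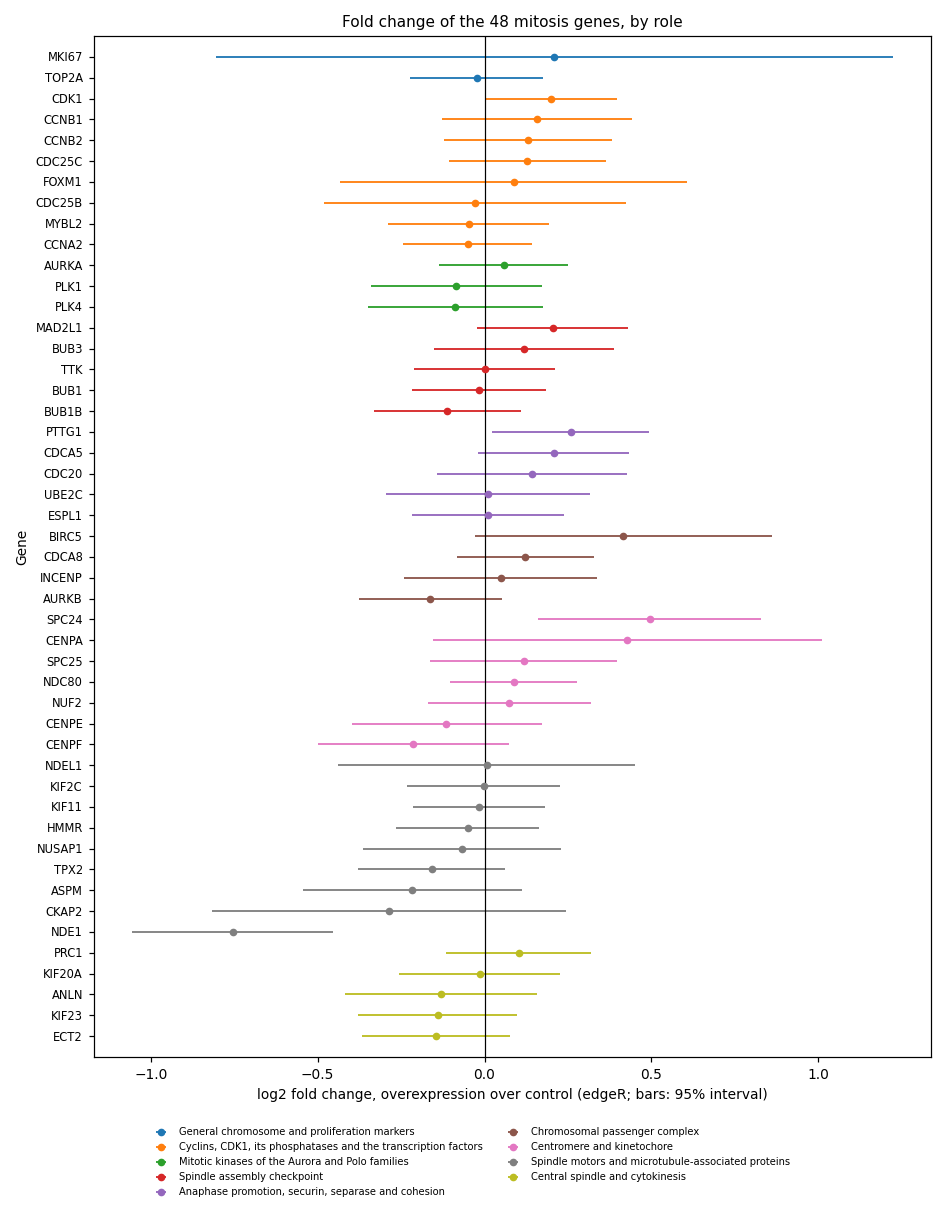
Log2 fold change of each of the 48 genes, overexpression over control, from edgeR, on the horizontal axis, with its 95% interval as a bar and genes grouped and coloured by role on the vertical axis. The intervals of 44 genes cross 0, NDE1 lies lowest at -0.755 and SPC24 highest at 0.495, and MKI67 has the widest interval.

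Many late cell cycle genes share a promoter element, the cell cycle genes homology region (CHR), which lies close to the transcription start and is bound by complexes that hold MYBL2 or FOXM1, which are both in the list. The CHR letters TTTGAA and TTCGAA were searched on both strands, from 250 bases before to 50 after the start, in the promoters that RefSeq (GRCh38.p14) gives for 41 of the 48 genes. A match was found for 27 of the 41 (65.9%) and for 11.5% of the 10107 tested genes with a promoter entry. Within 50 bases of the start the shares were 53.7% and 3.3%. 8 windows show the element, in capitals, in genes of different roles and in both spellings. Each is given 5′ to 3′ on the strand of its gene.
MKI67, chr10:128126435-128126464, minus strand: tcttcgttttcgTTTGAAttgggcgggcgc
PLK1, chr16:23678848-23678877, plus strand: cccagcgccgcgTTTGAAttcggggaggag
CCNB2, chr15:59105105-59105134, plus strand: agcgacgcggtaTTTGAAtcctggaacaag
CDCA8, chr1:37692481-37692510, plus strand: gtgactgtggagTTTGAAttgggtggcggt
CENPA, chr2:26786026-26786055, plus strand: cggagcgagcgaTTTGAAcgcgagcggcgc
PRC1, chr15:90994538-90994567, minus strand: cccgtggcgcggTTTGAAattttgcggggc
BUB1, chr2:110678045-110678074, minus strand: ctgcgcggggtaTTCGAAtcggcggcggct
CDCA5, chr11:65084049-65084078, minus strand: cagggcgggtaaTTCGAAcgttttttgcag

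The CCAAT box, spelled CCAAT on either strand, is the usual partner of the CHR. It was present in 65.9% of the 41 promoters and in 36.9% of all, and both elements were present in 51.2% and 4.84%. The median log2 fold change was 0.010 for the 27 genes with a CHR match and -0.022 for the others with an entry. No entry was matched for BUB3, UBE2C, AURKA, TTK, TPX2, FOXM1 and BIRC5. A match is a description of the letters, not a shown binding site.

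Library totals ran from 11130902 to 14138262 counts, and mitochondrial genes held 9.29% of the counts in control replicate 1 against 6.32% to 7.04% in the other 5 libraries. SOX5, the host gene of hsa_circ_0098181, was at 1900 to 2390 CPM (read counts relative to the library total, scaled by the trimmed mean of M values, TMM) with overexpression and at 31.2 to 41.7 CPM in the controls, so the groups were far apart. The count of SOX5 does not tell reads of the plasmid's insert from reads of the gene's own transcripts. The summed level of 10 hepatocyte and hepatoma markers, led by AFP, was 33600 to 35800 CPM with overexpression and 32100 to 38300 CPM in the controls. The 5 leukocyte markers summed to 482 to 524 against 426 to 468 CPM, which did not overlap. LYZ made up nearly all of that sum, and the part of these transcripts in the values of the 48 genes was not tested. The 5 endothelial markers (PECAM1 the highest, CDH5 at 0) and the 5 stellate cell markers overlapped between groups, at 46.8 to 59.0 and 19.9 to 23.0 CPM.

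The 48 genes spanned means of 8.08 CPM (CENPA) to 559 CPM (TPX2) over the 6 libraries, with counts from 53 to 7828 per library, so counting error was small for most of them. Per kilobase of merged exon, the level of TPX2 was also the highest at 155 CPM per kb, followed by CDC20 at 103, TOP2A at 83.0 and UBE2C at 76.9. The lowest per kilobase were CENPA at 4.07, NDEL1 at 3.79 and NDE1 at 2.81, and the median of the 48 was 22.4 CPM per kb. Their summed level in the 3 overexpression libraries was 6192, 6457 and 6168 CPM, and in the 3 control libraries it was 6673, 6295 and 6109 CPM, by replicate number. Averages of 6272 ± 160 and 6359 ± 287 CPM (SD, n = 3 each) differed by less than the spread between libraries. The 6 CPM values of a gene are given in this same order throughout.

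The proliferation marker MKI67, which encodes Ki-67, a protein that coats mitotic chromosomes, lies at chr10:128096659-128126385 (GRCh38, minus strand). Its level was 213, 441 and 289 CPM with overexpression and 212, 476 and 129 CPM with the control plasmid. Replicate 2 was the highest of both groups, and the control libraries alone spanned 3.69-fold, so the groups overlapped over nearly their whole range. On the log2 scale the difference was 0.21 ± 0.44 (SE, edgeR adjusted p 0.926). Leaving out single libraries moved it to -0.12 (overexpression replicate 2), -0.13 (control replicate 3) or 0.89 (control replicate 2). TOP2A, the topoisomerase that untangles sister chromatids, was by contrast even, at 519, 535 and 536 against 576, 547 and 494 CPM. Its log2 fold change was -0.02 ± 0.086 (SE), with a 95% interval from -0.22 to 0.17.

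Among cyclins, CDK1, its phosphatases and the transcription factors of the late cell cycle, 5 of 8 genes lay above 0 and 3 below, with a median of 0.107. CDK1 was at 121, 122 and 128 CPM with overexpression and at 101, 110 and 113 CPM with the control plasmid. The lowest overexpression value exceeded the highest control value. This pattern was seen for 5 of the 48 genes (CDK1, MAD2L1, PTTG1, CDCA5 and SPC24) and for 6.4% of all genes tested, and the opposite pattern for 2 of the 48 (NDE1 and AURKB) and for 6.5%. The difference in CDK1 was 0.20 ± 0.086 (log2, SE), with an unadjusted p of 0.0498 and an edgeR adjusted p of 0.797. Cyclin B1 (CCNB1), its partner at the entry into mitosis, was at 169, 171 and 164 against 123, 157 and 172 CPM. The 3 overexpression libraries were within 1.05-fold of each other, and the lower control mean rested on replicate 1. Its fold change was 0.16 ± 0.12 (log2, SE). Cyclin A2 (CCNA2), which acts in S phase and early mitosis, was at 166, 158 and 168 against 181, 164 and 165 CPM, a difference of -0.05 ± 0.084 (log2, SE).

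FOXM1, a transcription factor that turns on late cell cycle genes, was at 111, 119 and 110 against 132, 65.5 and 123 CPM. Control replicate 2 lay far below the other 5 libraries, and the fold change of 0.09 ± 0.23 (log2, SE) became -0.17 without it. MYBL2, a subunit of the complex that binds the CHR before FOXM1 joins it, was at 195, 184 and 161 against 202, 172 and 184 CPM. CDC25B, a phosphatase that activates CDK1, was at 149, 147 and 93.1 against 146, 106 and 145 CPM, so 1 library of each group lay below the rest. Neither MYBL2 (-0.05) nor CDC25B (-0.03) differed beyond its spread. The remaining genes of this role, CCNB2 and CDC25C, had log2 fold changes of 0.13 each, and their groups overlapped.

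The Aurora and Polo kinases AURKA, PLK1 and PLK4 were close to even, with a median of -0.085 over these 3 genes. The Aurora kinase AURKB was counted with the chromosomal passenger complex, at -0.163 with groups that did not overlap. AURKA, the kinase of the spindle poles, was at 165, 162 and 149 against 157, 147 and 153 CPM. PLK1, which acts from mitotic entry to cytokinesis, was at 108, 96.2 and 100 against 122, 95.3 and 105 CPM. Overexpression and control values of both kinases interleaved. The fold changes were 0.06 ± 0.084 for AURKA and -0.09 ± 0.11 for PLK1 (log2, SE). PLK4, the kinase of centriole duplication, was at -0.09, and the median of the 3 genes was 0.019 when control replicate 1 was left out and 0.014 when control replicate 3 was.

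The 5 genes of the spindle assembly checkpoint had a median of 0.001. BUB1, a checkpoint kinase at kinetochores, was at 143, 137 and 128 against 145, 137 and 131 CPM. BUB1B, which encodes the anaphase inhibitor BUBR1, was at 92.6, 93.2 and 101 against 111, 94.1 and 104 CPM. TTK, the kinase that starts checkpoint signalling, was at 82.9, 85.8 and 81.7 against 91.0, 79.2 and 80.0 CPM. All 3 overlapped between groups, with log2 fold changes of -0.02, -0.11 and 0.001 and standard errors of 0.087, 0.095 and 0.092. MAD2L1, the protein that binds and holds back CDC20, was at 96.0, 92.9 and 98.7 against 74.2, 85.3 and 90.1 CPM. Its groups did not overlap, but the difference of 0.20 ± 0.099 (log2, SE) had an unadjusted p of 0.0706 (edgeR adjusted p 0.797). That p was 0.0398 with the length and GC correction (0.270) and 0.0394 without control replicate 3 (0.266). BUB3, which carries BUB1 and BUBR1 to the kinetochore, was at 0.12 with overlapping groups.

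All 5 genes of anaphase promotion, securin, separase and cohesion had a log2 fold change above 0, with a median of 0.142, which ran from 0.073 with the length and GC correction to 0.255 without control replicate 3. In these and some other settings 1 of the 5 lay below 0, UBE2C in 4 of 15. PTTG1, or securin, the inhibitor of separase, was at 144, 152 and 124 against 110, 121 and 120 CPM. The groups did not overlap, although overexpression replicate 3 lay close to the controls. The fold change was 0.26 ± 0.10 (log2, SE), with an unadjusted p of 0.0352 and an edgeR adjusted p of 0.797. It was 0.18 to 0.34 over 15 other settings, and the unadjusted p was under 0.05 in 8 of them. CDC20, the activator of the anaphase-promoting complex, was at 223, 223 and 214 against 166, 197 and 235 CPM, so the highest value was a control. UBE2C, its ubiquitin-conjugating enzyme, was at 117, 92.4 and 88.4 against 111, 93.3 and 91.2 CPM, with replicate 1 highest in both groups. Their fold changes were 0.142 ± 0.125 and 0.011 ± 0.133 (log2, SE). CDC20 was at 0.030 without control replicate 1 and at 0.278, with an unadjusted p of 0.0354 in edgeR, without control replicate 3. CDCA5 (sororin, a protector of cohesion) was at 0.21 with groups that did not overlap, and ESPL1 (separase) was at 0.01.

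In the chromosomal passenger complex, which corrects faulty attachments and then acts in cytokinesis, the subunits did not share a direction. BIRC5, or survivin, was at 32.9, 34.0 and 47.7 against 22.4, 29.2 and 34.2 CPM. Overexpression replicate 3 and control replicate 1 lay at the ends, and the other 4 libraries held 29.2 to 34.2 CPM. The difference of 0.42 ± 0.19 (log2, SE) had an unadjusted p of 0.0632 (edgeR adjusted p 0.797), and it was 0.23 (without overexpression replicate 3) to 0.56 (without control replicate 3) over 15 other settings. AURKB, the kinase of the complex, was at 45.0, 44.9 and 41.6 against 47.9, 47.9 and 51.5 CPM, with no overlap. It had one of the smallest spreads of the list, and the difference of -0.16 ± 0.093 (log2, SE) had an unadjusted p of 0.117. With the length and GC correction it was -0.252, with an unadjusted p of 0.021 and the same direction. The scaffold INCENP was at 0.05 and borealin, encoded by CDCA8, at 0.12, both with overlapping groups.

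SPC24, a subunit of the NDC80 complex that binds microtubule ends at the kinetochore, had the largest positive fold change of the 48. It lies at chr19:11131520-11155808 (GRCh38, minus strand). Its exons share 88 bases with another gene on the opposite strand, and reads of the pair may have been counted to either gene. SPC24 was at 15.3, 13.4 and 16.3 CPM with overexpression and at 9.86, 12.1 and 9.94 CPM with the control plasmid. The groups did not overlap. The means of 15.0 ± 1.47 and 10.6 ± 1.26 CPM (SD, n = 3 each) differed by 0.495 ± 0.15 (log2, SE), with a 95% interval from 0.16 to 0.83. The unadjusted p was 0.00891 and the edgeR adjusted p 0.797, so it did not pass the correction. Over 15 other settings the fold change was 0.37 to 0.60 and the unadjusted p was under 0.05 in all 15. The value of 0.37 came from limma on log2(FPKM + 1), which is another scale, and the next lowest was 0.432.

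The 3 other subunits of the same complex had smaller fold changes than SPC24. NDC80 was at 0.09 ± 0.083, NUF2 at 0.07 ± 0.11 and SPC25 at 0.12 ± 0.12 (log2, SE), and the groups overlapped for each. NDC80 had the smallest spread of the list. Whether SPC24 differed from its partners was not tested.

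CENPA, the histone that marks centromeres, had the lowest CPM of the list, at 11.8, 8.83 and 7.18 against 4.88, 7.56 and 8.21 CPM. Overexpression replicate 1 was the highest and control replicate 1 the lowest library, and the other 4 lay between 7.18 and 8.83 CPM. The difference of 0.43 ± 0.25 (log2, SE) had an unadjusted p of 0.13 in edgeR. It was 0.215 without overexpression replicate 1 and 0.237 without control replicate 1. CENPE, a kinetochore motor, was at 108, 130 and 135 against 152, 132 and 119 CPM. CENPF, a large protein of the outer kinetochore, was at 306, 341 and 341 against 455, 352 and 338 CPM. Control replicate 1 was highest and overexpression replicate 1 lowest for both, and their fold changes were -0.114 ± 0.124 and -0.213 ± 0.125 (log2, SE). Without control replicate 1 they were -0.013 and -0.066, and without overexpression replicate 1 CENPE was at -0.022.

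8 of the 9 spindle motors and microtubule-associated proteins lay below 0, with a median of -0.068, and this median was below 0 in all settings tried. The largest difference of the 48 genes was that of NDE1, at chr16:15643267-15726353 (GRCh38, plus strand), which encodes a partner of the dynein motor and of LIS1 at centrosomes and kinetochores. NDE1 was at 12.6, 11.8 and 10.2 CPM with overexpression and at 18.6, 18.6 and 21.2 CPM with the control plasmid. The groups were far apart, with a gap from 12.6 to 18.6 CPM between them. The means were 11.5 ± 1.18 and 19.5 ± 1.49 CPM (SD, n = 3 each), a ratio of 0.592. On the log2 scale the difference was -0.755 ± 0.13 (SE), with a 95% interval from -1.06 to -0.45. The unadjusted p was 0.000373 and the edgeR adjusted p 0.403. DESeq2 gave an adjusted p of 0.0184, against 0.206 to 0.882 over the edgeR and limma alternatives, and the fold change was -0.82 to -0.49 over all 15 settings. The value of -0.49 came from limma on log2(FPKM + 1), which is another scale, and the next smallest difference was -0.678. The exons of MYH11 share 765 bases with NDE1 on the opposite strand, and MYH11 held 0 to 4 counts per library.

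NDEL1, the close relative of NDE1 with the same partners, had a log2 fold change of 0.01 ± 0.19 (SE), and its control libraries spanned 1.74-fold. The difference between the changes of the 2 paralogs was not tested.

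**Figure D2:**
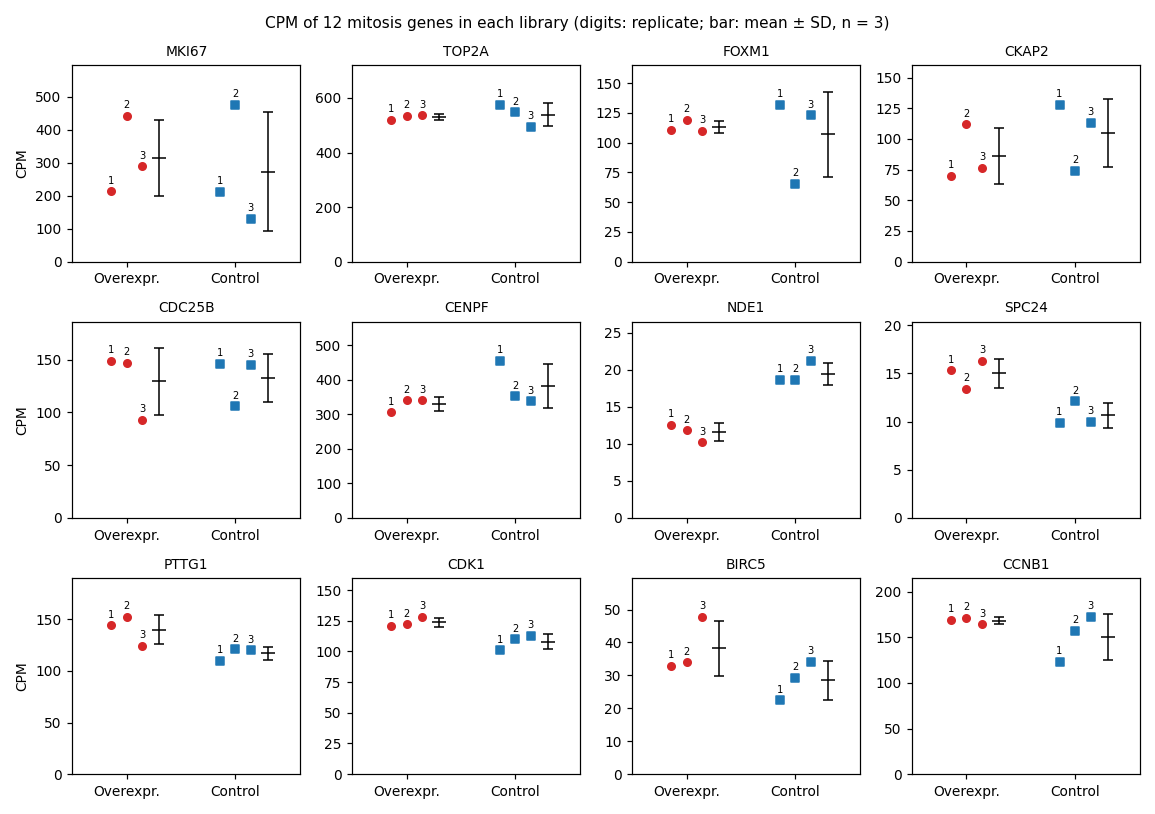
CPM (vertical axes, starting at 0) of 12 of the 48 genes in each library, with overexpression as red circles, control as blue squares, the replicate number above each point, and the mean ± SD of 3 libraries as a bar. NDE1, SPC24, PTTG1 and CDK1 show groups that do not overlap, whereas for MKI67, FOXM1, CKAP2 and CDC25B single libraries lie far from the others of their group.

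The other spindle genes overlapped between groups. TPX2, which activates AURKA on microtubules, was at 553, 525 and 507 against 654, 541 and 574 CPM. KIF11, the motor that pushes the poles apart, was at 93.2, 92.9 and 104 against 98.4, 98.7 and 96.0 CPM. ASPM, a spindle pole protein, was at 278, 338 and 356 against 443, 371 and 315 CPM. For TPX2 and ASPM control replicate 1 was the highest library. Their differences were -0.16 ± 0.096, -0.02 ± 0.086 and -0.22 ± 0.14 (log2, SE) for TPX2, KIF11 and ASPM. CKAP2, a microtubule stabiliser, was at 69.7, 112 and 76.4 against 128, 74.2 and 113 CPM. In each group 1 library lay at the level of the other group, and the difference was -0.29 ± 0.23 (log2, SE). It was -0.116 without control replicate 1, -0.523 (unadjusted p 0.0461) without overexpression replicate 2 and -0.483 (unadjusted p 0.0488) without control replicate 2. KIF2C, a motor that takes microtubules apart, was at -0.003, and the microtubule-binding proteins NUSAP1 and HMMR were at -0.07 and -0.05.

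Central spindle and cytokinesis genes had a median of -0.129, with 1 of 5 above 0. ANLN, a scaffold of the contractile ring, was at 171, 176 and 176 against 230, 168 and 173 CPM. The overexpression libraries agreed within 1.03-fold, and 1 control library, replicate 1, stood above all others. The difference of -0.13 ± 0.13 (log2, SE) was 0.03 without that library. Without it the median of the 5 genes was 0.029, so the sign of this group rested on 1 library. The central spindle motors KIF20A and KIF23 were at -0.015 and -0.14. ECT2, which activates RhoA at the division plane, was at -0.145 and PRC1, which bundles microtubules between the chromosomes, at 0.10. The groups overlapped for all 4.

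**Figure D3:**
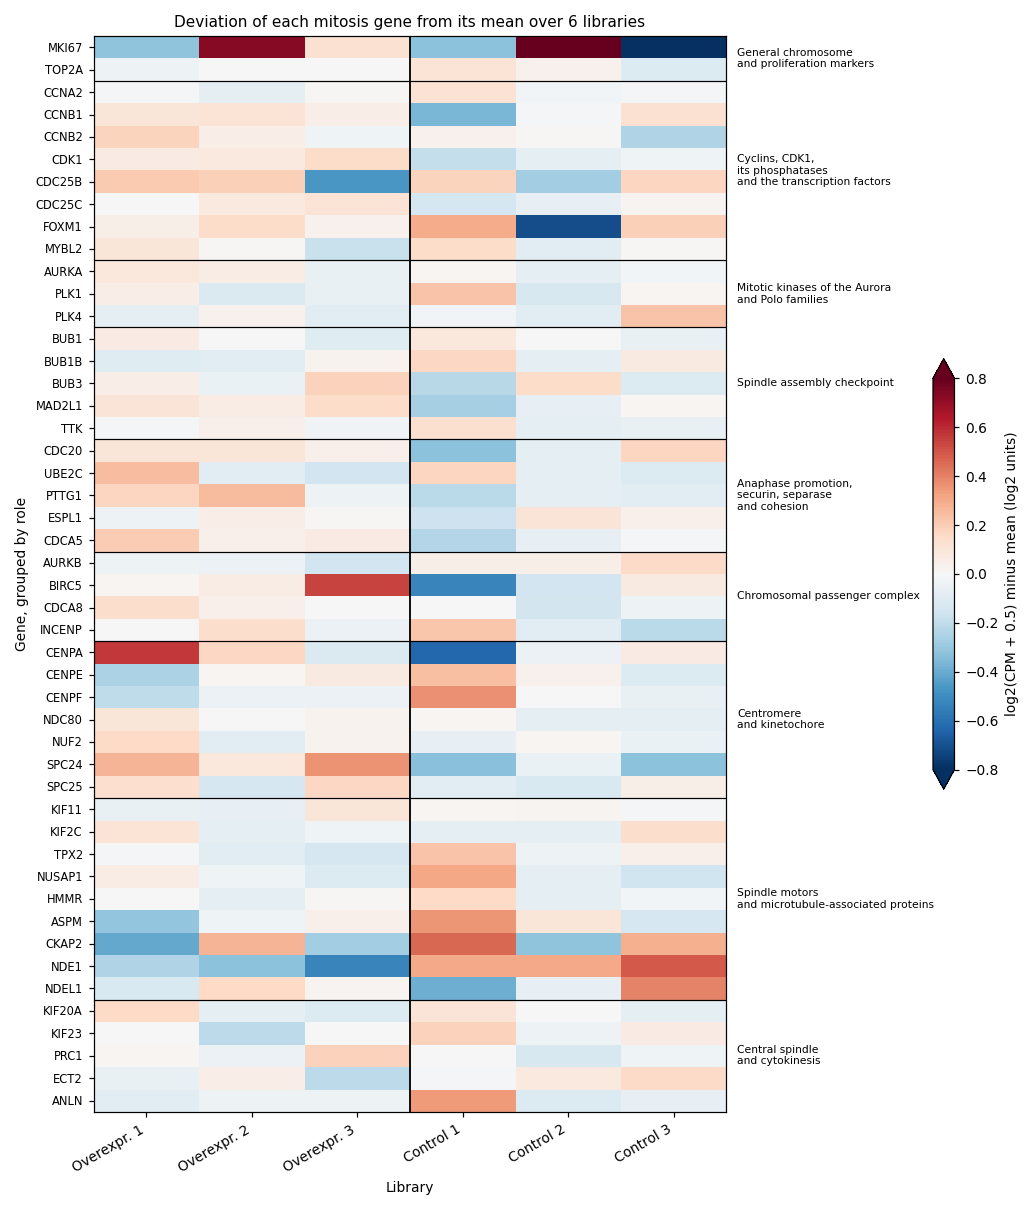
Deviation of log2(CPM + 0.5) from the gene's mean over 6 libraries (colour, log2 units, ending at 0.8 in either direction, with the ends of MKI67 beyond the scale), for 48 genes in rows grouped by role and 6 libraries in columns. Red and blue cells are spread over both groups, and the strongest colours outside NDE1 belong to single libraries of MKI67, FOXM1, BIRC5 and CENPA.

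The spread between replicates was measured per gene as the SD of log2(CPM + 0.5) within groups. It had a median of 0.123 over the 48 genes, against 0.149 over the 10289 genes whose mean lay between those of CENPA and TPX2, and 0.182 over all genes tested. No test of this difference was made, and within that range the 10289 genes were not matched to the 48 in level. 40 genes had an SD under 0.2, as did 7166 of the 10289 and 8298 of all 15055 genes tested. In 23 genes the coefficient of variation was under 10% in both groups, as for NDC80, with an SD of 0.0515, and AURKB, with 0.0617.

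7 genes stood out, with an SD above 0.25 and at least 1.5-fold between the highest and the lowest library of a group. They were MKI67 (0.768), FOXM1 (0.393), CKAP2 (0.386), CENPA (0.358), CDC25B (0.331), BIRC5 (0.297) and NDEL1 (0.296). For MKI67 the spread was larger than that of 99.2% of the 1190 genes within 2-fold of its mean level. The percentage was 95.5% for FOXM1, 95.3% for CKAP2 and 93.5% for CDC25B, each against genes of its own level. CENPA, with the lowest counts, exceeded 85.3% of genes of its level. The library that stood apart was not the same one: MKI67 was highest in replicate 2 of both groups and lowest in control replicate 3, FOXM1 was low in control replicate 2, and CDC25B was low in overexpression replicate 3 and control replicate 2. The summed level of the 47 genes other than MKI67 was 5979, 6016 and 5879 CPM with overexpression and 6462, 5819 and 5981 CPM with the control plasmid. Control replicate 2, where MKI67 was highest, had the lowest sum of the others.

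**Figure D4:**
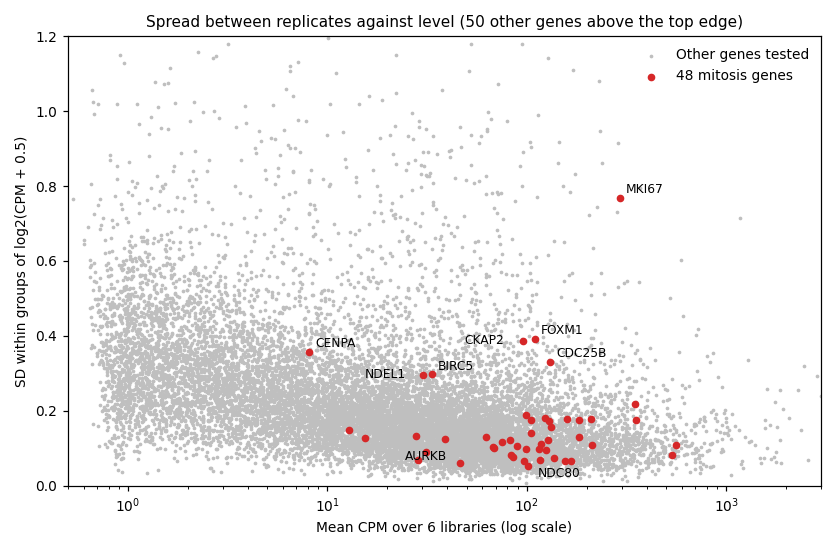
SD of log2(CPM + 0.5) within groups (vertical axis) against mean CPM over 6 libraries (horizontal log axis) for the 48 genes in red and other tested genes in grey. MKI67 lies at 0.768, far above genes of its level, while 40 of the 48 lie under 0.2.

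Control replicate 1 held the extreme value more often than any other library. It was highest for 18 of the 48 genes and lowest for 13, together 64.6%, against 53.1% of all genes tested. In overexpression replicates 1 to 3 the share was 31.2%, 14.6% and 39.6%, against 39.3%, 23.2% and 26.8% of all genes tested. In control replicates 2 and 3 it was 20.8% and 29.2%, against 24.6% and 33%. Among the 13 were CCNB1, CDK1, MAD2L1, CDC20, PTTG1, BIRC5, CENPA and SPC24, and among the 18 were CENPF, ASPM, TPX2, KIF23 and ANLN. This library also had the fewest counts and the largest mitochondrial share. Without it, SPC24 (0.446) and NDE1 (-0.785) still had an unadjusted p under 0.05 in edgeR. PTTG1 (0.215) and CDK1 (0.153) kept most of their fold change, with unadjusted p of 0.078 and 0.0883. CCNB1 was at 0.033 without it, CENPF at -0.066, ASPM at -0.081 and TPX2 at -0.075.

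The deviations of some libraries went with transcript length, taken as that of the longest protein-coding transcript of each gene in GENCODE 29 (914 to 12678 bases, median 3151). Over the 48 genes, the correlation of log2 length with the deviation from the gene's mean was -0.65, 0.14 and 0.05 in the overexpression libraries and 0.29, 0.38 and -0.30 in the controls, by replicate number. Over all genes it was -0.28 in overexpression replicate 1, 0.25 in control replicate 1 and -0.04 to 0.05 in the other 4 libraries. These are descriptions across genes of 1 library, whose points share that library and are not independent. In overexpression replicate 1 short transcripts such as UBE2C, PTTG1 and CENPA lay above their means and the long transcripts of ASPM, CENPF and MKI67 below. Log2 length and log2 fold change correlated at -0.31 over the 48 genes and at -0.22 over 14972 genes tested. The 24 longer genes had a median log2 fold change of -0.027, with 8 above 0 and 16 below. The 24 shorter ones had a median of 0.102, with 17 above and 7 below. After each library's trend with length and GC content was removed, these medians were -0.008 and 0.057. The counts above and below 0 were then 11 and 13 for the longer genes, and 15 and 9 for the shorter. With that correction the log2 fold change of the long ASPM went from -0.217 to -0.079, that of CENPF from -0.213 to -0.067 and that of the short PTTG1 from 0.258 to 0.179, with an unadjusted edgeR p of 0.0866.

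**Figure D5:**
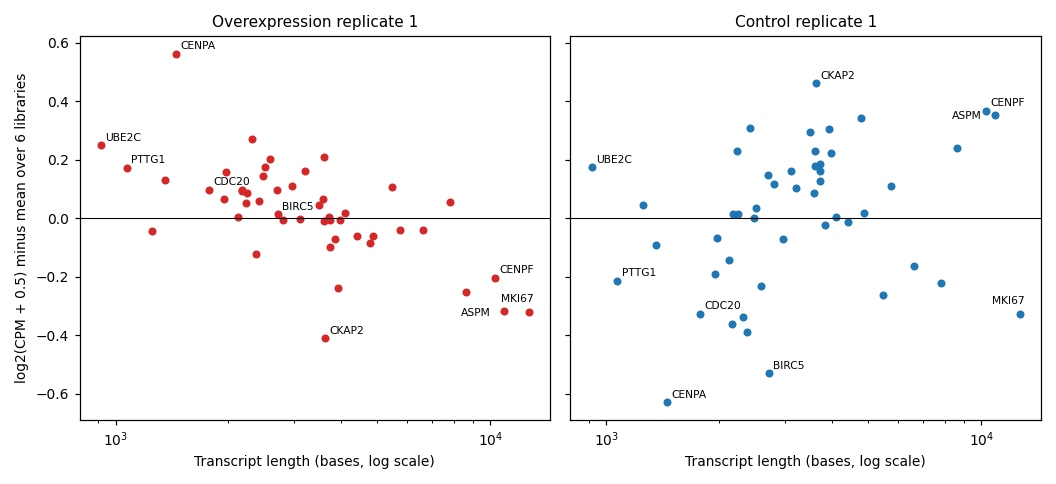
Deviation of log2(CPM + 0.5) from the gene's mean over 6 libraries (vertical axis) against transcript length in bases (horizontal log axis) for the 48 genes, in overexpression replicate 1 (left) and control replicate 1 (right). The points fall with length on the left (r = -0.65) and rise weakly on the right (r = 0.29).

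Other genes of the same pathways were counted as lists. In 31 other kinetochore and centromere genes the median log2 fold change was 0.038, in 23 other spindle, motor and cytokinesis genes -0.077, and in 29 other mitotic kinases, regulators and checkpoint genes 0.079. The 17 condensin and cohesin genes had a median of -0.065, with 4 above 0 and 13 below, and the 16 subunits of the anaphase-promoting complex 0.090, with 12 above and 4 below. Together these 116 genes had a median of 0.014, with 62 above and 54 below, so they were as balanced as the 48. 0 of the 116 passed an adjusted p of 0.05 in edgeR, and 7 had an unadjusted p under 0.05, a share near the 5.5% of all genes. These were CENPH (0.47) and CENPQ (0.42), both of the inner kinetochore, and TFDP1 (0.29), the partner of E2F factors, on the higher side. On the lower side were the motor KIF2A (-0.25), the condensin subunit SMC4 (-0.24), the cohesin subunit STAG2 (-0.35) and ANAPC13 (-0.24) of the anaphase-promoting complex.

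DNA replication genes, which peak earlier in the cell cycle, were counted in the same way. 34 of 40 lay above 0 and 6 below, where 7601 of all 15055 genes tested lay above 0. The median of the 40 was 0.096, and it ran from 0.075 to 0.111 over the other settings. These genes share the same 6 libraries, so their directions are not independent. 6 of the 40 had an unadjusted p under 0.05, against 5.5% of all genes tested, and 0 passed the adjusted p in edgeR. In 10 of the 40 the lowest overexpression value exceeded the highest control value, against 6.4% of all genes, and in 0 of the 40 the reverse held, against 6.5%. The 6 were GINS4, a subunit of the replicative helicase, at 42.1 ± 12.1 against 18.4 ± 0.705 CPM (SD, n = 3 each), and E2F1, CCNE1, ORC6, TK1 and POLD1, with log2 fold changes from 0.25 to 0.35. Compared with the 48 mitosis genes, at a median of 0.004, the values are given side by side only, since the difference between the lists was not tested.

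The study named miR-18a-3p as the microRNA that hsa_circ_0098181 binds. The mature sequence is shown with its seed, bases 2 to 8, in capitals.
miR-18a-3p: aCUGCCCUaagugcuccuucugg
The complement of that seed, AGGGCAG, was searched in the 3′ UTR of the longest coding transcript of each gene (GENCODE 29, GRCh38). It was found in 3 of the 48 genes (6.25%), against 2392 of 12560 tested genes (19%), with no account of the length of the 3′ UTRs. The sites are shown in capitals in windows of the transcript strand.
KIF2C, site at chr1:44767324-44767330, plus strand: catctgggcccAGGGCAGctggggaggggg
MKI67, site at chr10:128097719-128097725, minus strand: gggattgcaccAGGGCAGaacaggggaggg
NDEL1, site at chr17:8467144-8467150, plus strand: acggctggcagAGGGCAGgctgcatgcagt
The log2 fold changes of these 3 genes were -0.003, 0.21 and 0.01, with standard errors of 0.10, 0.44 and 0.19. Their median was 0.006, against 0.001 for the 45 genes without a site, and 0 of the 3 had an unadjusted p under 0.05 in edgeR or DESeq2 with all 6 libraries.

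In 17 of the 48 genes exons share bases with another gene, mostly on the opposite strand, as for FOXM1 with ITFG2 (104 to 164 counts per library) and for CENPA with SLC35F6 on the same strand (372 to 444 counts). Reads of such pairs may have been counted to either gene.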

How the data were processed

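Total RNA of 6 Huh7 libraries was sequenced. Each sample's title gave its group and replicate number. The deposited table, made by the authors, lists unnormalized read counts and FPKM for every gene in every library. Per the labels' processing notes, reads were aligned with TopHat2 2.0.9 to hg38. The counting tool, its handling of strand and the annotation are not given in the sources used here. GENCODE 29 held 98.5% of the gene IDs, and all 48 genes of the list had the same start and end there.

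The deposited counts were tested with the quasi-likelihood test of edgeR 4.0.16 under R 4.3.3 (TMM normalization, low genes removed by filterByExpr at 10 counts, two-sided, with a term for the group) over 15055 genes with Benjamini-Hochberg adjustment. The biological coefficient of variation was 16.1%. Totals of 11130902 to 14138262 counts limit the precision of the lowest genes, and the counts were made without molecular identifiers. Alternatives were DESeq2 1.42.0, upper-quartile and RLE normalization, no filter, a mean of at least 50 counts, limma 3.58.1 on log2(FPKM + 1) from the deposited FPKM (at least 1 FPKM in 3 libraries), a replicate block, no mitochondrial genes, a correction for length and GC content (splines with 5 degrees of freedom) and leaving out each library. The fits were also run on simulated data, and the outcome is not given here.

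The list, its roles, the other lists and the tests were chosen with earlier results of these data known. CPM of every library are given for 25 genes chosen by role and for any other gene of the list with an unadjusted p under 0.05 or among the 5 largest or smallest fold changes or the 5 largest spreads, which made 29. Genes of other lists are named only with an unadjusted p under 0.05. Same-numbered libraries did not deviate together over all genes (correlations of -0.029, -0.012 and -0.031). With 3 libraries per group this cannot settle whether the numbers pair the libraries, and the titles do not say. Promoter and microRNA sequences are from RefSeq. The values of 1 marker gene and of 1 gene that overlaps a listed gene are not reported here.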

Additional observations from a re-analysis of the deposited data

How the results depend on the processing

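Of 435 values of the 29 genes given per library, recomputed under 15 other settings, 404 kept their direction and their side of an adjusted p of 0.05, 30 changed sign in 11 genes and 1 (NDE1, by DESeq2) passed the threshold. The median log2 fold change of the 48 genes ran from -0.022 to 0.034 over all settings, always within the spread between replicates. With DESeq2, 28 genes of the table and 1 of the 48 passed an adjusted p of 0.05, and with the length and GC correction 3 genes of the table passed. When 1 library was left out, 4 to 16 genes of the table passed, the most without overexpression replicate 2. Of the 48, 2 (without control replicate 1) to 7 (without control replicate 3) then had an unadjusted p under 0.05. The cause was not tested.

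The replicate block left 4 genes of the table past an adjusted p of 0.05 and 3 of the 48 (BIRC5, NDE1 and SPC24) at an unadjusted p under 0.05, and changed no call at the adjusted p among the 48.

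The 11 genes whose sign changed all had a 95% interval that held 0 in the full data. With limma on log2(FPKM + 1) BUB1 was at 0.007, KIF11 at 0.006 and TOP2A at 0.003. With the length and GC correction these were at 0.009, 0.036 and 0.053, and UBE2C at -0.085. TTK was at -0.001 with RLE normalization and with DESeq2. With each library left out in turn, the ranges were -0.211 to 0.029 for ANLN, -0.054 to 0.026 for BUB1, -0.167 to 0.162 for CDC25B, -0.168 to 0.269 for FOXM1 and -0.069 to 0.009 for KIF11. They were -0.128 to 0.887 for MKI67, -0.110 to 0.029 for MYBL2, -0.166 to 0.019 for PLK1, -0.082 to 0.028 for TOP2A, -0.035 to 0.070 for TTK and -0.124 to 0.107 for UBE2C. Depth limited CENPA most, with counts from 53 per library.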
